A study of Mus musculus with 18 samples.

Results

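The 9 genes Hmgcs1, Mvd, Idi1, Fdps, Fdft1, Sqle, Lss, Cyp51 and Msmo1 encode enzymes of cholesterol synthesis. They were taken by symbol from the expression tables of mouse embryonic stem cells (ESCs), trophoblast stem cells (TSCs) and extra-embryonic endoderm (XEN) cells, and all 9 were found in each table, among 13578 genes of the ESC table, 13518 of the TSC table and 11538 of the XEN table (14804 different genes in all). The question put to these genes was how their expression moved when the cells were kept in hypoxia. Control cultures of each cell type were kept at 20% oxygen (normoxia). Hypoxic cultures were kept at 2% oxygen for 2 days, called acute, or 7 days, called prolonged, and bulk RNA-seq was made from 2 replicates of each condition, 6 libraries per cell type and 18 in all. No gene was altered and no drug was given in any of these groups. The ESCs were of the line E14, wild type and grown without feeders in serum and LIF. The TSCs were grown on feeders with FGF4 and heparin, so that their RNA can hold feeder RNA, and the XEN cells were grown on gelatin in medium conditioned on mouse embryonic fibroblasts. The labels give no line name for TSCs and XEN cells. All 3 media held serum. Each cell type stands for 1 line, so differences between cell types cannot be told apart from differences between lines and media.

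Cholesterol is built from acetyl-CoA through mevalonate, isoprene units, farnesyl diphosphate, squalene and lanosterol. Transcription of these enzymes is driven mainly by SREBP2, encoded by Srebf2, a membrane-bound factor that is released when sterols in the endoplasmic reticulum fall and held back by INSIG proteins when they are high. Several steps after squalene use molecular oxygen, among them those of Sqle, Cyp51 and Msmo1, while the steps up to squalene do not. Trophoblast cells use cholesterol for membranes and, after differentiation, for steroid hormones.

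Promoter sequence is shown because the 9 genes are textbook targets of one pathway. RefSeq promoter sequences (build GRCm38.p6) were at hand for 6 of the 9 members, and Fdps, Fdft1 and Sqle had none in the table used. The 250 bases before the RefSeq start were searched on both strands for CCAAT, the CCAAT box bound by NF-Y, which works with SREBP at many sterol genes. They were also searched for TCACNCCAC, a form of the sterol regulatory element, and for ACGTG, a form of the core of the HIF site. Other forms of both sites were not searched, so a promoter without a match can still hold one. CCAAT was present in 6 of 6 members, against 33.8% of 32851 promoters. TCACNCCAC was present in 1 of 6, Hmgcs1, against 1.05% of promoters, and ACGTG in 0 of 6, against 16.6%. For each of the 6 genes, the 30 bases around the CCAAT box nearest to the start are given in the direction of the gene, with the box or its reverse complement in capitals, followed by the window around the Hmgcs1 sterol element, also in capitals. No printed box overlaps another searched motif.
Hmgcs1, chr13:119690294-119690323, + strand: tccccgcctctcATTGGctgaaagcggatc
Mvd, chr8:122443432-122443461, - strand: ccggccagcgggCCAATcatatggcagcgc
Idi1, chr13:8885576-8885605, + strand: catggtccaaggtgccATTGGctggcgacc
Lss, chr10:76531531-76531560, + strand: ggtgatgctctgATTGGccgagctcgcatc
Cyp51, chr5:4104709-4104738, - strand: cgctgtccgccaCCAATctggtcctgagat
Msmo1, chr8:64733616-64733645, - strand: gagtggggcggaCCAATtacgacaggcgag
Hmgcs1 sterol element, chr13:119690204-119690233, + strand: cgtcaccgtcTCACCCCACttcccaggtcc
The boxes of the 6 genes began 45, 27, 14, 62, 29 and 55 bases before the RefSeq start, in the order printed, and the Hmgcs1 sterol element began 137 bases before it. These matches describe letters in the windows and not binding, which was not measured here for these genes. By the GENCODE spans given next, the printed windows of Idi1, Cyp51 and Msmo1 lie within the gene and not before it. The genes themselves lie apart in the genome (GENCODE M21, mm10), at chr13:119690379-119708260 for Hmgcs1, chr8:122433601-122443422 for Mvd, chr13:8885501-8892451 for Idi1, chr3:89093588-89101959 for Fdps, chr14:63145150-63179578 for Fdft1, chr15:59315077-59331192 for Sqle, chr10:76531588-76557138 for Lss, chr5:4081145-4104746 for Cyp51 and chr8:64718139-64733792 for Msmo1.

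The values are TPM (transcript abundance scaled to the same total in every library) deposited by the authors for each cell type on its own, so no test was made between cell types. TPM here had been scaled by the distance from the start to the end of each gene, with its introns, and between 98.6% and 98.9% of the values of a library fell within 0.05 of a whole number of reads on that scale. The libraries held 35592641 to 75204029 recovered reads. Behind single members there were 59 to 12440 reads, the fewest for Idi1 (59 to 1574) and Fdps (102 to 889). A gene was called changed when limma on log2(TPM + 0.5), fitted to the 6 libraries of a cell type, gave an adjusted p at or under 0.1 over all genes tested and a fold over 1.5. All 9 members passed the filter on low values in every cell type, and 12271, 12481 and 10894 genes were tested in ESCs, TSCs and XEN cells. With 2 libraries in each group an exact permutation test reaches 0.333 at best. The limma p-values therefore lean on variance pooled across genes, and they measure the spread between these libraries only. Reads of Fdps are uncertain, since Gm43738 lies over most of it on the same strand, and Mvd lies within Gm20388 on the other strand. Hmgcs1, Idi1, Fdft1, Lss and Cyp51 share part of their span with a gene on the other strand. In bulk RNA, fewer cells of a type and less RNA per cell cannot be told apart.

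Each cell type expressed its own markers in each library. Among TSC libraries, normoxia replicate 1 and day 2 replicate 2 stood apart by fibroblast genes, with Col1a1 at 856 and 503 TPM against 81.6 to 137 in the other libraries, and with the 8 fibroblast markers summing to 1852 and 950 TPM against 197 to 425. Of the 8 TSC markers, 5 had both day 7 libraries below all other TSC libraries, Cdx2, Eomes, Elf5, Gata3 and Tead4, with Cdx2 at 40.3 and 35.1 TPM against 88.0 to 169. The other 3 had both day 7 libraries above both day 2 ones. Krt8 was at 7399 and 7702 TPM on day 7 against 2896 and 3596 on day 2, Hand1 at 14763 and 12872 against 8568 and 7234, and Tfap2c at 488 and 463 against 383 and 404. Of the 8 ESC markers, 6 were in the TSC table, some of which, such as Sox2 and Esrrb, are also factors of trophoblast stem cells. The 6 summed to 842 and 874 TPM in normoxic libraries, 1268 and 1295 on day 2, then 294 and 252 on day 7, highest on day 2 like the enzymes. Most of the sum was Sox2, at 660 and 714, then 1045 and 1104, then 172 and 129 TPM. The XEN markers summed to 15.3 to 25.5 TPM. The part of these markers in the results on the 9 enzymes was not tested. Ratios between the 2 TSC libraries with high fibroblast genes, and between 2 with low, are given beside the results of day 2 against normoxia. The high ones still differed, at 1852 and 950 TPM. Of the 10 genes used as a check of hypoxia, 3 were called higher in TSCs on day 2, namely Pdk1, Bnip3 and Pgk1. Over all genes 0.192% were called higher there. On day 2, 0 of the 10 were called in ESCs or XEN cells, where no gene at all was called. All 10 had positive log2 fold changes there, with medians of 1.03 in ESCs and 0.71 in XEN cells. Libraries did not overlap and were higher for 9 in ESCs and 8 in XEN cells, where 16.4% and 19.6% of genes were.

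**Figure D1:**
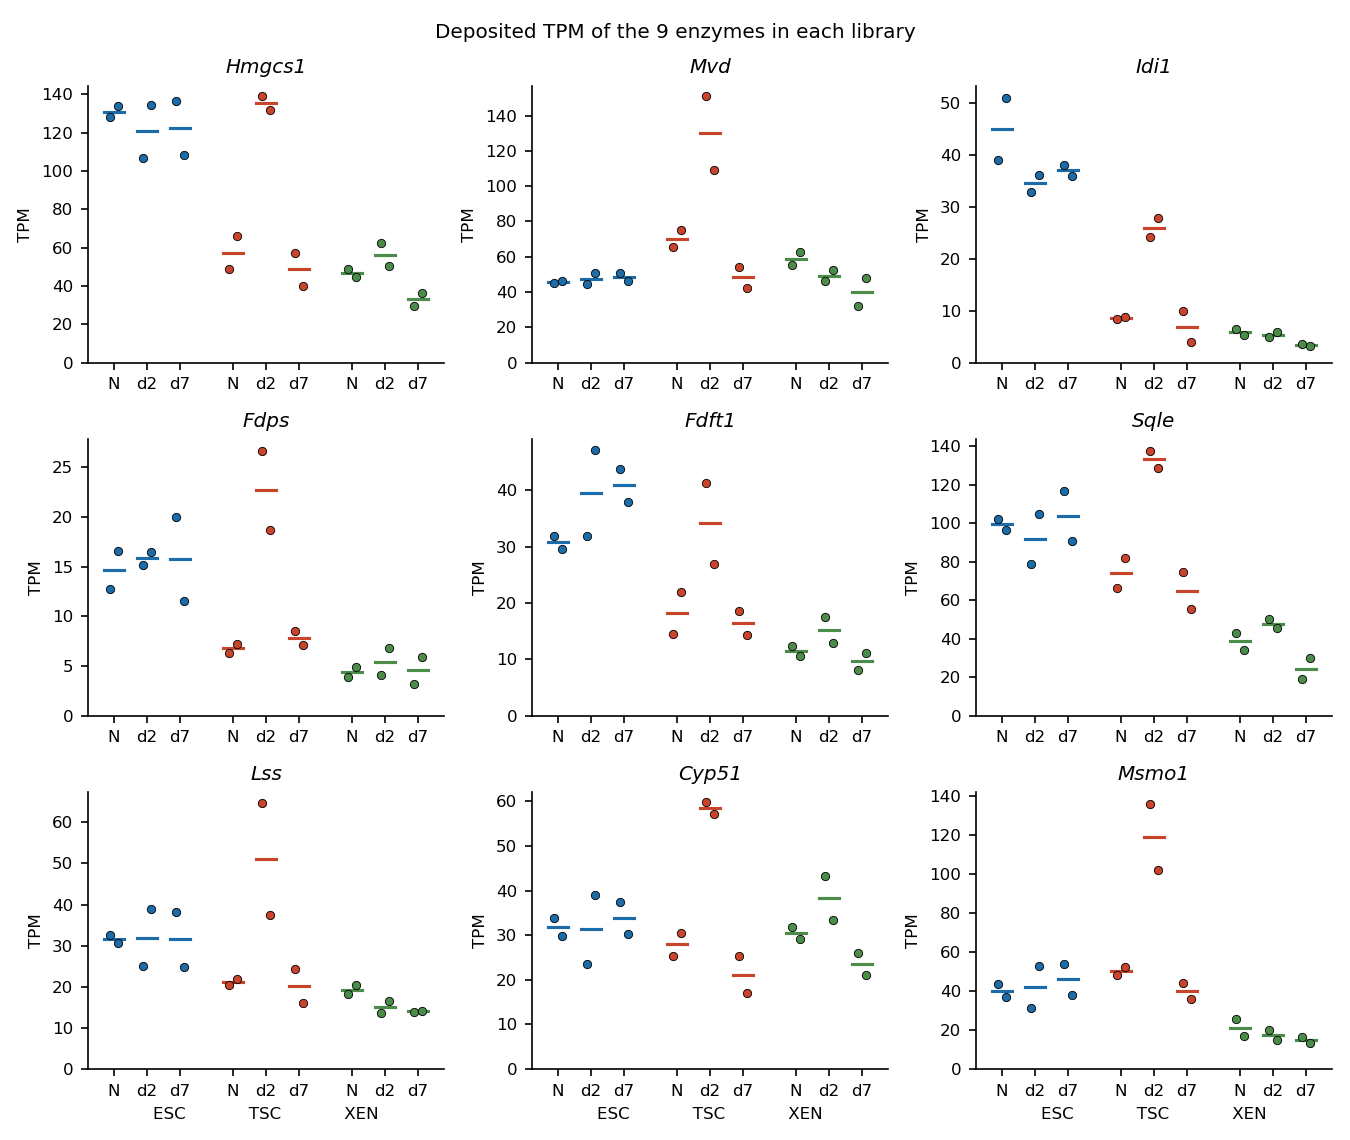
Deposited TPM (y axis, from 0, one scale per gene) of the 9 enzymes in each library, grouped on the x axis by cell type (ESC blue, TSC red, XEN green) and condition (N normoxia, d2 and d7 hypoxia). Points are the 2 libraries of a condition and bars their mean; in TSCs both day 2 points lie above all other TSC points for every gene.

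In TSCs, the cholesterol enzymes peaked on day 2 of hypoxia and were back near or under the normoxic level on day 7. The median log2 fold change of day 7 against normoxia was -0.24 for the 9, beside -0.18 over all genes. Each of the 9 was higher in both day 2 libraries than in both normoxic and both day 7 libraries. Over all genes, 30.6% had both day 2 libraries above normoxia and 44.9% had them above day 7. From normoxia to day 2 the rise of the means was between 1.81-fold (Sqle) and 3.13-fold (Fdps) on the log2(TPM + 0.5) scale, none of which passed the adjusted threshold. From day 2 to day 7 all 9 fell past it, by 2.02-fold (Fdft1) to 3.91-fold (Idi1), where 13.8% of genes were called lower. ESCs and XEN cells had no member called in any comparison.

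The mevalonate and isoprene steps come first. Hmgcs1, which makes HMG-CoA on the way to mevalonate, was at 48.8 and 66.0 TPM in normoxic TSCs, 139 and 132 on day 2, then 57.4 and 40.2 on day 7. Its day 2 level was 135 ± 4.98 TPM (SD, n = 2) against 57.4 ± 12.2 in normoxia. Mvd, the decarboxylase that gives isopentenyl diphosphate, was at 65.5 and 74.9 TPM in normoxia, 151 and 109 on day 2, then 54.4 and 42.4 on day 7. For both genes the day 2 libraries were the highest and none overlapped with another condition.

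Idi1 interconverts the 2 isoprene units and was the member with the largest fall. It was at 8.38 and 8.73 TPM in normoxia, 24.1 and 27.8 on day 2, then 9.88 and 3.90 on day 7. The day 7 libraries were far apart and lay on both sides of the normoxic ones. Fdps, which joins the units into farnesyl diphosphate, was at 6.36 and 7.25 TPM in normoxia, 26.7 and 18.7 on day 2, then 8.57 and 7.13 on day 7, the largest rise on day 2 of the 9.

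Fdft1, squalene synthase, commits farnesyl diphosphate to sterols. It was at 14.6 and 21.9 TPM in normoxia, 41.2 and 27.0 on day 2, then 18.5 and 14.3 on day 7. Its day 2 libraries differed by more than 10 TPM from each other, and the fall to day 7 was the smallest of the 9. Lss, which closes squalene epoxide to lanosterol and uses no oxygen, was at 20.4 and 21.9 TPM in normoxia, 64.7 and 37.5 on day 2, then 24.3 and 16.1 on day 7. The lower day 2 library was still above all other TSC libraries for both genes.

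The 3 oxygen-using enzymes among the members were also highest on day 2. Sqle, which adds oxygen to squalene, was at 66.1 and 81.8 TPM in normoxia, 138 and 129 on day 2, then 74.5 and 55.3 on day 7. Cyp51, which takes a methyl group off lanosterol, was at 25.4 and 30.4 TPM in normoxia, 59.9 and 57.2 on day 2, then 25.3 and 17.0 on day 7. Msmo1, which oxidises further methyl groups of the sterol ring, was at 48.3 and 52.3 TPM in normoxia, 136 and 102 on day 2, then 44.1 and 35.9 on day 7. The day 2 libraries of Sqle and Cyp51 lay close together, and those of Msmo1 were further apart. The log2 fold changes from normoxia to day 2 were 0.85 for Sqle, 1.06 for Cyp51 and 1.22 for Msmo1, and those of the other 6 ran from 0.87 (Mvd) to 1.65 (Fdps). Whether the 3 differ from the 6 was not tested.

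On day 2 against normoxia, 9 of 9 members had both TSC libraries above both normoxic ones, while 30.6% of all genes tested did so. The median log2 fold change of the 9 was 1.20, beside 0.07 over all genes. No member was called by limma, with adjusted p from 0.116 for Fdps to 0.314 for Fdft1, and called genes were rare in this comparison, at 0.2% of those tested and 0.192% called higher. All 9 had an unadjusted p under 0.05, as did 13.1% of genes, and 0 were called with voom on the recovered reads. For Fdps the log2 fold change was 1.65 ± 0.26 (SE, n = 2 per group). For Msmo1 it was 1.22 ± 0.22 and for Hmgcs1 1.25 ± 0.24, with adjusted p of 0.126 and 0.149 (limma). Between the 2 libraries with high fibroblast genes, day 2 replicate 2 and normoxia replicate 1, the TPM ratio of the members was 1.67 to 3.32 with a median of 2.11. Between the 2 with low fibroblast genes, day 2 replicate 1 and normoxia replicate 2, it was 1.68 to 3.68 with a median of 2.11. In each of the 4 pairs of a day 2 with a normoxic library, 9 of 9 members were above 1. Of the 6 ESC markers 5 also had both day 2 libraries above normoxia, with a median log2 fold change of 0.66, and 0 were called. Their part in the rise of the enzymes was not tested.

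On day 7 against day 2, 9 of 9 members were called lower in TSCs, in a comparison in which 13.8% of all genes were called lower and 16.2% were called at all. The median log2 fold change was -1.46, beside -0.24 over all genes, and libraries did not overlap for 9 of 9, as for 44.9% of genes in this direction. All 9 had an unadjusted p under 0.05, as had 27.9% of genes, and voom on recovered reads called 8 of 9 and 15.6% of genes. Msmo1 fell by 1.55 on the log2 scale (SE 0.22, limma adjusted p = 0.0181), Hmgcs1 by 1.48 (SE 0.24, adjusted p = 0.0240) and Idi1 by 1.97 (SE 0.39, adjusted p = 0.0351). The others had adjusted p from 0.0242 for Mvd and Cyp51 to 0.0891 for Fdft1. Many genes fell together here, and the balance of directions depended on the scaling. Called genes were 296 higher and 1723 lower as deposited, and 738 higher and 968 lower after median-ratio scaling, which moved the median of all genes to 0.02. After that scaling the median of the 9 was -1.18 and 8 were called lower, all but Fdft1. The calls depended on single libraries. Without day 2 replicate 1, 0 members and 30 genes in all were called, with log2 fold changes of the members from -2.07 to -0.71. Without day 7 replicate 2, 0 members and 0 genes in all were called, with log2 fold changes from -1.41 to -0.83. Without day 7 replicate 1, 6 members and 284 genes were called, Fdft1, Fdps and Lss being lost. Without day 2 replicate 2, which had high fibroblast genes, 9 members and 1519 genes were called, and all 9 log2 fold changes stayed negative whichever library was left out. The day 2 libraries enter both this comparison and that with normoxia, so the rise and the fall are not independent. In the same comparison 5 of the 8 TSC markers were called lower, Cdx2, Eomes, Elf5, Gata3 and Tead4, and 1, Krt8, was called higher. Of the 6 ESC markers 4 were called lower, Nanog, Sox2, Zfp42 and Esrrb, with a median of -1.94 over the 6. Of the 10 genes used as a check of hypoxia, 5 were called lower, Pdk1, Bnip3, Egln3, Ankrd37 and Pgk1. Another 2 had both day 7 libraries above both day 2 ones, as had 14.3% of genes. On day 7 against normoxia all 10 had positive log2 fold changes, with a median of 0.65 beside -0.18 over all genes. Libraries did not overlap and were higher for 7, where 8.98% of genes were, and 0 were called. The part of these markers in the fall of the enzymes was not tested.

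No member was called in TSCs between day 7 and normoxia (limma adjusted p 0.490 to 0.928, 0 at an unadjusted p under 0.05 beside 10.4% of genes, 0 with voom, and 0.385% of genes called). The median log2 fold change was -0.24 beside -0.18 over all genes. Libraries did not overlap for Mvd, Cyp51 and Msmo1, which were lower on day 7, and 32.3% of genes did the same. Mvd had a log2 fold change of -0.54 ± 0.23, the largest in size of the 9, and Fdps was the member with a positive one, 0.19 ± 0.26. After median-ratio scaling 4 of the 9 were above 0 and 5 below.

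**Figure D2:**
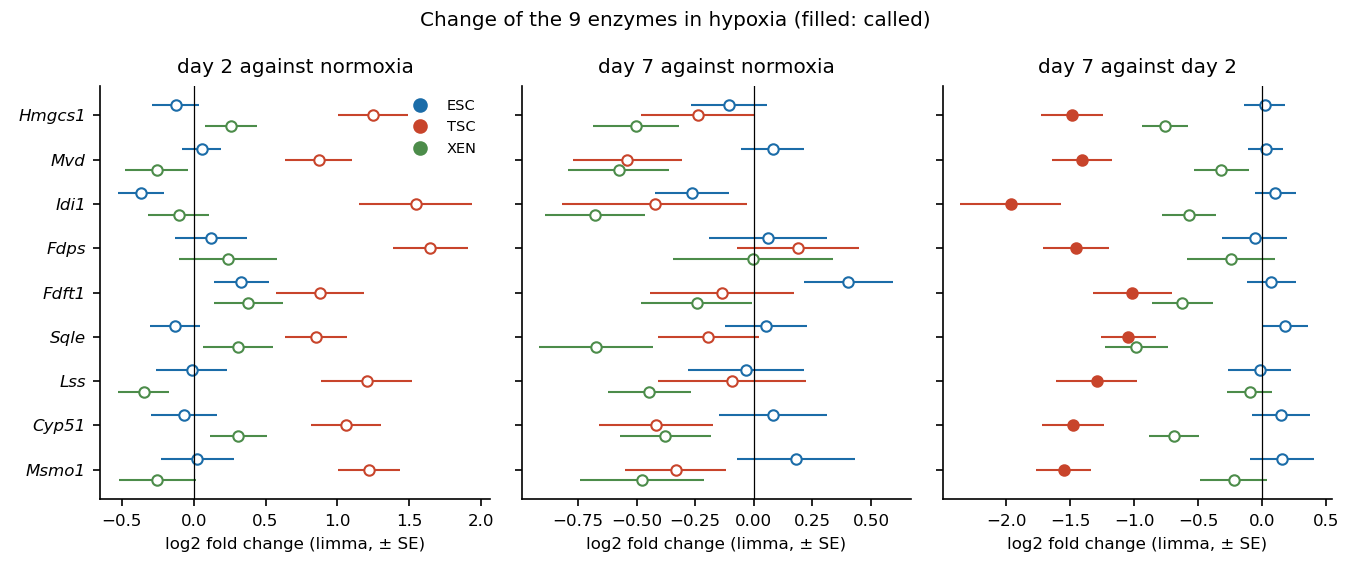
Log2 fold changes (x axis, limma on log2(TPM + 0.5), bars ± SE) of the 9 enzymes in ESCs (blue), TSCs (red) and XEN cells (green) for the 3 comparisons of conditions. Filled points were called and open points were not; the 9 filled points are the TSC values of day 7 against day 2, from -1.97 to -1.01.

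In ESCs, the same enzymes had no common direction in hypoxia. Hmgcs1 was at 128 and 134 TPM in normoxia, 107 and 135 on day 2, then 137 and 108 on day 7. Sqle was at 102 and 96.4 TPM in normoxia, 78.7 and 105 on day 2, then 117 and 90.9 on day 7. For both genes the hypoxic libraries lay on either side of the normoxic ones. Idi1 was the member whose libraries in both hypoxic conditions lay below normoxia, at 39.0 and 50.8 TPM in normoxia, 32.8 and 36.1 on day 2, then 38.1 and 36.0 on day 7. Fdft1 was higher in both, at 31.9 and 29.6 TPM in normoxia, 32.0 and 47.1 on day 2, then 43.8 and 38.0 on day 7, though 1 day 2 library was level with normoxia.

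By limma, 0 of 9 members were called for ESCs in each of the 3 comparisons, where 0%, 0.758% and 0.179% of genes were called on day 2 against normoxia, day 7 against normoxia and day 7 against day 2. The count of members at an unadjusted p under 0.05 was 1 (Idi1 on day 2), 0 and 0, where 5.05%, 8.04% and 4.26% of genes were, and voom called 0 in each. Median log2 fold changes of the 9 were -0.01, 0.06 and 0.07, beside 0.01, 0.02 and 0.01 over all genes. On day 2 the values ran from -0.37 ± 0.16 for Idi1 to 0.33 ± 0.19 for Fdft1, and on day 7 against normoxia from -0.26 ± 0.16 for Idi1 to 0.40 ± 0.19 for Fdft1. From day 2 to day 7 they lay between -0.06 and 0.18, and 0 members had libraries that did not overlap, where 15.2% of genes were above and 8.8% below. Libraries of 2 members did not overlap on day 2, Fdft1 above and Idi1 below, where 16.4% of genes were above and 14.4% below. On day 7 Mvd and Fdft1 were above and Idi1 below, where 23% and 17.5% of genes were. For Mvd, replicate 2 of day 7 was level with replicate 2 of normoxia, at 46.23 and 46.22 TPM. The standard errors, 0.13 to 0.25, leave room for uncalled changes on either side of the 1.5-fold threshold.

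The ESC replicates of a hypoxic condition differed as a block. All 9 members were lower in day 2 replicate 1 than in replicate 2, with a median ratio of 0.753, and all 9 were higher in day 7 replicate 1 than in replicate 2, with a median ratio of 1.26. In normoxia 5 were higher in 1 library and 4 in the other, with a median ratio of 1.06. In TSCs all 9 were lower in normoxia replicate 1 than in replicate 2, with a median ratio of 0.874. On day 2, 8 of 9 were higher in TSC replicate 1, with a median ratio of 1.33, and on day 7 all 9 were, with a median ratio of 1.35. In XEN cells no condition had all 9 in 1 order. The factor of median-ratio scaling follows the typical gene of a library. For replicates 1 and 2 in TSCs it was 1.07 and 0.985 in normoxia, 1.09 and 1.09 on day 2, then 0.970 and 0.825 on day 7. In ESCs it was 1.03 and 0.950 in normoxia, 0.967 and 1.04 on day 2, then 1.04 and 0.993 on day 7. The part of such library-wide shifts in the differences between replicates was not tested.

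In XEN cells, the enzymes were mixed on day 2 and lay lower on day 7, with no member called. Hmgcs1 was at 48.9 and 44.7 TPM in normoxia, 62.2 and 50.4 on day 2, then 29.7 and 36.4 on day 7. Sqle was at 42.9 and 34.4 TPM in normoxia, 50.3 and 45.4 on day 2, then 19.1 and 30.01 on day 7. Both were highest on day 2 and lowest on day 7 with no overlap between conditions. Cyp51 followed the same order, at 32.0 and 29.2 TPM in normoxia, 43.3 and 33.4 on day 2, then 26.0 and 21.1 on day 7. Mvd did not, at 55.4 and 62.6 TPM in normoxia, 46.1 and 52.4 on day 2, then 32.2 and 47.9 on day 7. Lss was also highest in normoxia, at 18.3 and 20.3 TPM, against 13.7 and 16.5 on day 2, then 13.8 and 14.2 on day 7. Idi1 and Fdps were low throughout, between 3.256 and 6.47 TPM and between 3.23 and 6.80 TPM.

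On day 2 against normoxia, the median log2 fold change of the 9 in XEN cells was 0.24, beside -0.01 over all genes, and the values ran from -0.35 ± 0.18 for Lss to 0.38 ± 0.24 for Fdft1. Libraries did not overlap for 4 members above (Hmgcs1, Fdft1, Sqle and Cyp51) and 2 below (Mvd and Lss), where 19.6% and 21.4% of genes were. By limma 0 members and 0% of genes were called, with 0 members at an unadjusted p under 0.05 (7.77% of genes) and 0 called with voom. Between day 7 and normoxia, 7 of 9 did not overlap and were lower, all but Fdps and Fdft1, where 23.9% of genes were. The median was -0.48 beside -0.03 over all genes, and Idi1 and Sqle were over 1.5-fold lower, with log2 fold changes of -0.68 ± 0.21 and -0.67 ± 0.24. No member was called (limma adjusted p 0.440 to 0.998, 0 with voom, 0.11% of genes called), and 5 had an unadjusted p under 0.05, as had 9.01% of genes. On day 7 against day 2, 5 of 9 did not overlap and were lower, where 25.9% of genes were, and the median was -0.57 beside -0.02. Sqle had the largest value, -0.98 ± 0.24. Again 0 were called by limma or voom (adjusted p 0.373 to 0.816, 0.0367% of genes called), and 5 had an unadjusted p under 0.05, as had 11.9% of genes. Fibroblast markers summed to 0.665 to 1.72 TPM in the XEN libraries, from 2 of the 8 genes.

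Levels of the 9 can be set against each other within a library once TPM is recomputed with exon lengths, as is done in this paragraph. In normoxic ESCs Hmgcs1 was highest at 171 ± 8.61 (SD, n = 2), then Sqle at 97.1 ± 2.16, Fdft1 at 84.2 ± 2.78 and Mvd at 81.3 ± 2.85, and Fdps lowest at 9.83 ± 2.00. Fdft1 and Mvd overlapped, as did Msmo1 and Idi1, and the other neighbours did not. In normoxic TSCs Mvd was highest at 118 ± 13.2, then Hmgcs1 at 71.2 ± 16.2 and Sqle at 68.4 ± 11.4, which overlapped. Cyp51, Fdft1 and Msmo1 followed at 47.6, 47.5 and 40.8, with overlap between neighbours among the 3, and Idi1 and Fdps were lowest at 5.40 ± 0.25 and 4.31 ± 0.47. On day 2 the order of the first 4 in TSCs was Mvd at 217, Hmgcs1 at 166, Sqle at 122 and Cyp51 at 98.8, with no overlap among these, and on day 7 Mvd was first at 84.1 and Idi1 last at 4.46. In normoxic XEN cells Mvd was highest at 96.0 ± 8.37 and Fdps lowest at 2.72 ± 0.44. In each XEN condition, Idi1 and Fdps held the last 2 places. The places of Fdps in every cell type are uncertain, since Gm43738 lies over most of it on the same strand. Those of Mvd can be uncertain too, since it lies within Gm20388 on the other strand and strand treatment is not given. Idi1 was at 30.01 ± 6.17 in normoxic ESCs, in a table that was scaled on its own.

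The rest of the pathway was read from lists of 11 other cholesterol synthesis enzymes, 12 genes of SREBP and sterol sensing, 11 of cholesterol uptake, storage and export, 10 of fatty acid synthesis and 10 of other isoprenoid branches. In TSCs on day 2 against normoxia 0 genes of these 5 lists were called. Of the other cholesterol enzymes 9 of 11 had both day 2 libraries above normoxia, where 30.6% of all genes did, 5 had an unadjusted p under 0.05, as had 13.1% of genes, and the median log2 fold change was 0.52. The median was 0.63 for fatty acid synthesis, 0.17 for uptake, storage and export, 0.13 for sterol sensing and -0.02 for the isoprenoid branches, beside 0.07 over all genes. Voom called 1 gene each in the lists of sterol sensing and of uptake, storage and export and 0 in the others.

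On day 7 against day 2 in TSCs, 7 of the 11 other cholesterol enzymes were called lower and 0 higher, with a median of -0.86. The largest falls were in Lbr by 1.77 (SE 0.19), Tm7sf2 by 1.67 (SE 0.25) and Pmvk by 1.45 (SE 0.24). Lbr and Tm7sf2 both reduce a double bond of the sterol ring, and Lbr is also a protein of the inner nuclear membrane. Pmvk phosphorylates mevalonate phosphate. In fatty acid synthesis 6 of 10 were called lower and 0 higher, with a median of -0.93. Elovl6, a fatty acid elongase, fell by 2.11 (SE 0.35), Scd2, a desaturase, by 1.39 (SE 0.26) and Fads2, a desaturase of polyunsaturated fatty acids, by 1.26 (SE 0.31). In uptake, storage and export 3 of 10 tested were called lower and 0 higher, with a median of -0.25. Stard4, a sterol carrier, fell by 1.55 (SE 0.22), Mylip, a ubiquitin ligase, by 1.05 (SE 0.27) and Soat1, which esterifies cholesterol for storage, by 1.01 (SE 0.26). In sterol sensing 2 of 12 were called lower and 0 higher, with a median of -0.21. In the isoprenoid branches, which use the same farnesyl diphosphate for prenylation, dolichol and ubiquinone, 0 of 10 were called by limma or voom, 0 had an unadjusted p under 0.05 and the median was -0.14. These counts stand beside 13.8% of all genes called lower. No test between lists was made.

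Insig1 and Srebf2, which set the activity of the pathway, were read in each comparison. Insig1, which holds SREBP back and is itself a target of it, was at 40.7 and 46.8 TPM in normoxic TSCs, 175 and 135 on day 2, then 42.3 and 21.9 on day 7. Its log2 fold change was 1.81 ± 0.32 on day 2 (limma adjusted p = 0.126, not called) and it fell by 2.32 ± 0.32 from day 2 to day 7 (adjusted p = 0.0181). Srebf2 was at 73.4 and 82.2 TPM in normoxia, 163 and 122 on day 2, then 84.6 and 44.8 on day 7. The log2 fold change of Srebf2 on day 2 was 0.85 ± 0.32 (not called), and it fell by 1.19 ± 0.32 to day 7 (limma adjusted p = 0.0668). Both genes had their highest libraries on day 2 with no overlap with another condition. On day 7 against normoxia the log2 fold change was -0.51 for Insig1 and -0.33 for Srebf2, and neither was called.

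In ESCs the log2 fold changes of Insig1 and Srebf2 were between -0.05 (Insig1, day 7 against day 2) and 0.10 (Insig1, day 2 against normoxia), none called. In XEN cells Insig1 was at -0.19 on day 2 and -0.48 ± 0.15 on day 7 against normoxia, and Srebf2 at 0.29 and -0.36. None of these was called, and 0 genes of the 5 lists were called in ESCs or XEN cells in any comparison by limma. Voom called 1, in the list of uptake, storage and export in ESCs on day 7 against normoxia.

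**Figure D3:**
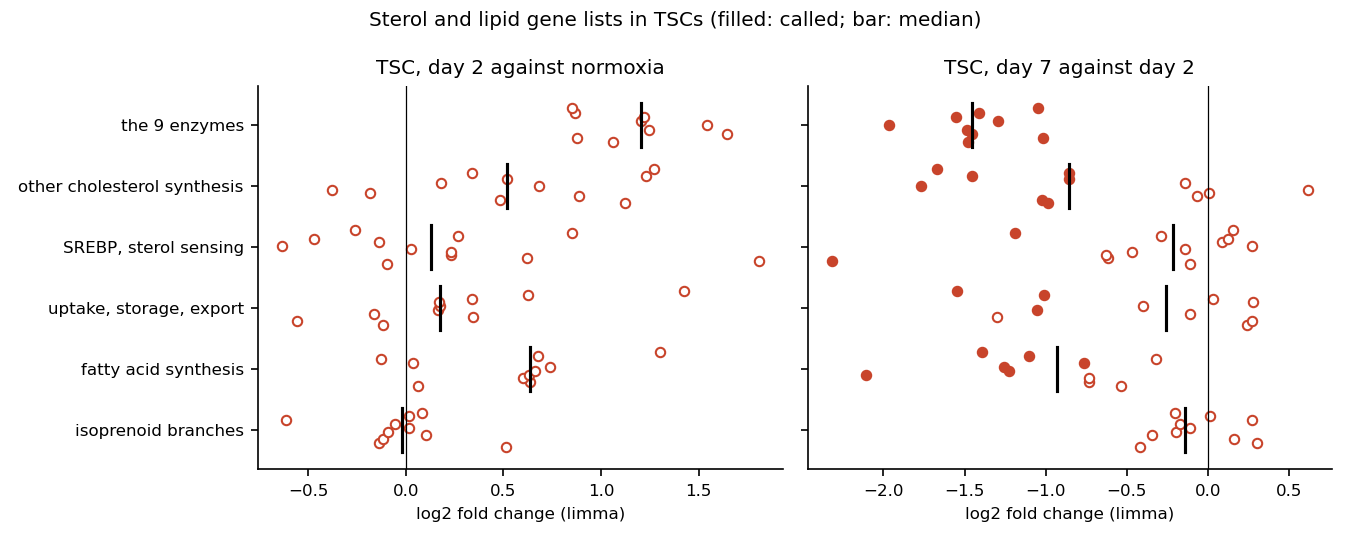
Log2 fold changes (x axis) in TSCs of the 9 enzymes and of 5 lists of sterol and lipid genes, day 2 against normoxia (left) and day 7 against day 2 (right). Each point is a gene, filled where called, and the bar is the median of the list; the 9 enzymes have medians of 1.20 and -1.46 and the isoprenoid branches of -0.02 and -0.14.

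The 9 members varied together most closely in TSCs. Over the 6 libraries of a cell type, the median Pearson's r of the 36 pairs of members was 0.94 in TSCs (0.86 to 0.998) but 0.66 in ESCs (-0.43 to 0.97) and 0.45 in XEN cells (-0.60 to 0.97). Over the 18 libraries, each centred on the mean of its cell type, the median was 0.82 (0.66 to 0.94). These points share libraries and depth and are given as a description. The mean centred log2 level of the 9 was -0.43 and -0.19 in normoxic TSCs, 1.02 and 0.71 on day 2, then -0.30 and -0.81 on day 7. In ESCs it was within -0.24 to 0.22 in the 6 libraries, and in XEN cells within -0.42 to 0.20, with the lowest 2 on day 7.

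Of 10072 genes tested in all cell types that are not members, the 10 most like this mean profile over the 18 libraries were Insig1 (Pearson's r 0.963), Rsbn1l (0.943), Rab11fip4 (0.936), Suz12 (0.935), Seh1l (0.930), Fam76b (0.921), Fam199x (0.920), Stard4 (0.918), Srebf2 (0.915) and Trim37 (0.913). Of these 10, Insig1, Stard4 and Srebf2 were in the sterol lists. The profile is carried mainly by the TSC libraries, whose range was the widest.

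**Figure D4:**
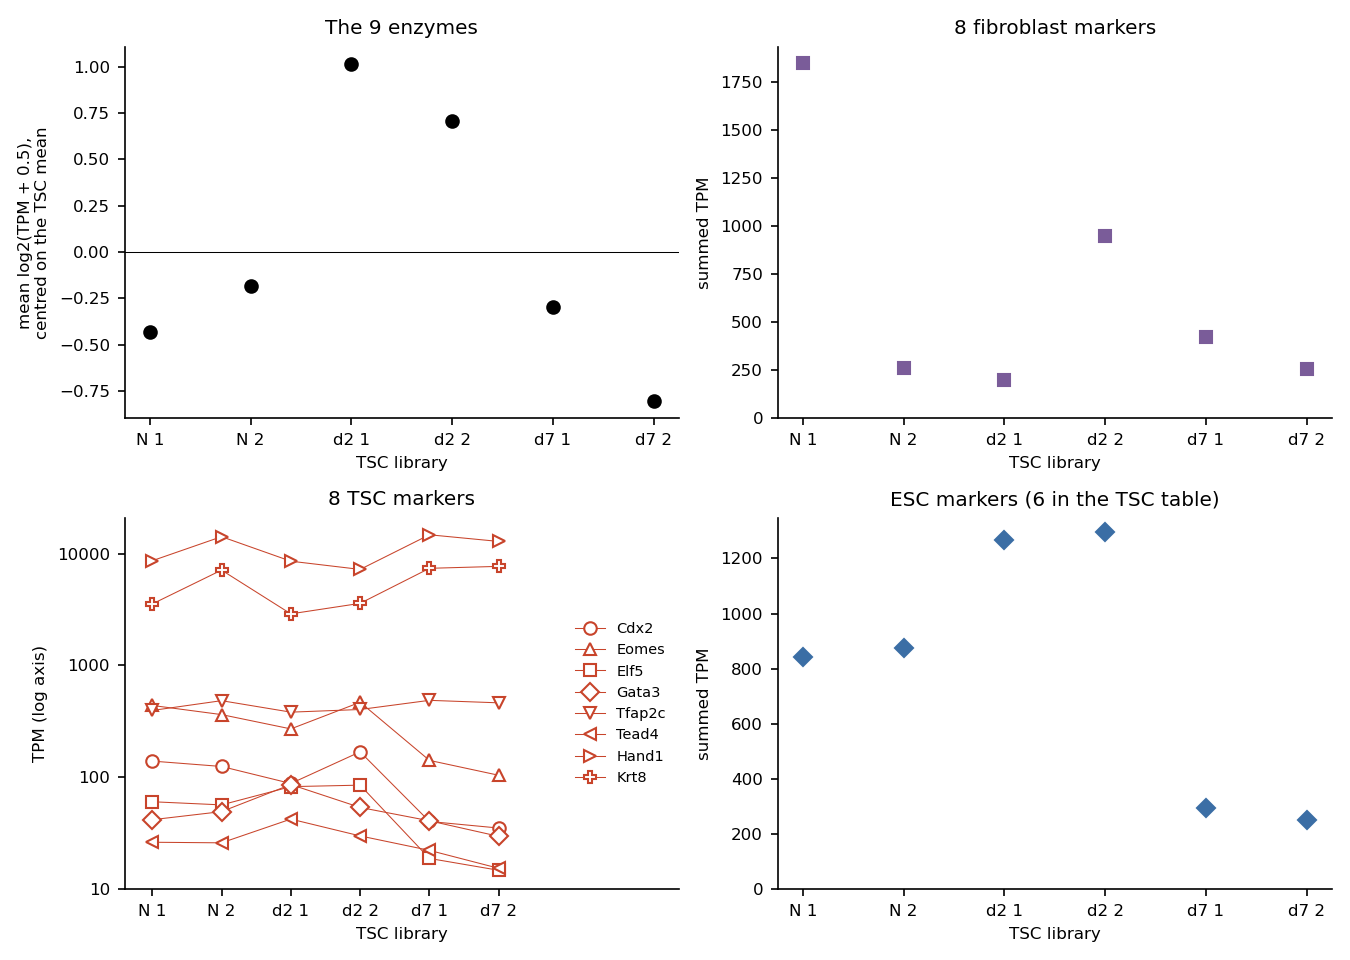
The 6 TSC libraries (x axis: N normoxia, d2 and d7 hypoxia, replicates 1 and 2), with the mean log2(TPM + 0.5) of the 9 enzymes centred on the TSC mean (top left), the summed TPM of 8 fibroblast markers (top right), TPM of the 8 TSC markers on a log axis (bottom left, lines join a gene) and the summed TPM of the 6 ESC markers in the TSC table (bottom right). The enzymes are highest in both day 2 libraries (1.02 and 0.71), the fibroblast markers in normoxia replicate 1 (1852 TPM) and day 2 replicate 2 (950 TPM), 5 of the 8 TSC markers are lowest in both day 7 libraries, and the ESC markers are highest on day 2 (1268 and 1295 TPM) and lowest on day 7 (294 and 252 TPM).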

How the data were processed

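The authors trimmed reads with cutadapt 2.4, aligned them to mm10 with STAR 2.7.5a, used StringTie 2.0.6 and counted with featureCounts. They kept genes that passed 0.4 CPM in 2 or more of the 6 libraries of a cell type and deposited TPM in 1 table per cell type. Columns named day 0 were taken as normoxia. The deposited TPM were scaled by gene span, which lowers long genes with short exons, so reads were recovered from the TPM with GENCODE M21 spans, and exon lengths (all exons of a gene joined) were used for levels between genes. Genes over 0.4 TPM in 2 or more libraries of a cell type were fitted on log2(TPM + 0.5) with limma 3.58.1 (R 4.3.3, trend on the mean), all 6 libraries of a cell type together and without a replicate term, with Benjamini-Hochberg adjustment. The fold is on that scale and understates changes of low genes. The count test of the authors was not run. With it, at the same thresholds, the authors called more genes in each cell type on day 2 and on day 7 against normoxia. Python 3.11.15, numpy 2.4.6, pandas 2.3.3 and matplotlib 3.10.9 were used. The fit was tested on simulated data without library-wide shifts or outlying libraries, so that test does not show how the fit behaves with them.

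Named genes were the 9 members, Srebf2 and Insig1, at most the 3 largest called genes per sterol or lipid list, direction and comparison, and the 10 most like genes. Marker and check genes are named where a result stands beside them. Other genes of this rule and of the lists are not reported here, and the lists were counted without them. The members and lists were chosen with earlier results of these data known. Correlations of deviations between same-numbered libraries ran from -0.46 to 0.27, and nothing says that the numbers mark a shared culture. Alternatives were pseudocounts of 0.1 and 1, other filters, median-ratio scaling, exon lengths, voom on recovered reads, no trend, only the 4 libraries compared, an adjusted p of 0.05, a replicate block and each library left out. A block with crossed numbers was chosen after seeing the data. How strand was treated in counting is not given in the sources used here. Proteins of the members were not analysed here.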

Additional observations from a re-analysis of the deposited data

Results flagged for a closer look

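Members whose libraries all lay on opposite sides of normoxia in different cell types were these, and the difference between cell types was not tested, since the tables were normalized separately. On day 2 against normoxia, Mvd had a log2 fold change of 0.87 in TSCs and -0.26 in XEN cells, and Lss 1.20 in TSCs and -0.35 in XEN cells. Idi1 was at 1.54 in TSCs and -0.37 in ESCs. On day 7 against normoxia, the log2 fold change of Mvd was 0.081 in ESCs, where TSCs had -0.54 and XEN cells -0.58. In ESCs replicate 2 of day 7 was level with replicate 2 of normoxia, at 46.23 and 46.22 TPM.

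In TSCs all 9 members differed between day 7 and day 2 of hypoxia, by limma's test of day 7 against day 2. These calls depended on single libraries, as given above. Time in hypoxia and time in culture cannot be told apart, since normoxia was a single group. The log2 fold changes were -1.48 for Hmgcs1, -1.41 for Mvd, -1.97 for Idi1, -1.46 for Fdps and -1.01 for Fdft1. Sqle was at -1.05, Lss at -1.30, Cyp51 at -1.48 and Msmo1 at -1.55. With 2 libraries per group, outlying libraries could not be tested.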

How the results depend on the processing

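Of 870 values under settings other than leaving out a library or crossing the replicate numbers, 854 kept their direction and side of the threshold, 6 lost it, 1 gained it and 9 changed sign, and of 522 with a library left out, 444 kept both, 48 lost the threshold and 30 changed sign. The 9 members called lower in TSCs on day 7 against day 2 were 7 at an adjusted p of 0.05, 8 with no filter, median-ratio scaling or voom, and 0 to 9 with each library left out. Without day 7 replicate 1, Fdft1, Fdps and Lss were not called. With the replicate block 8 members were called, Fdft1 being lost (adjusted p = 0.118, limma), and the numbers are not known to pair the libraries. With the block, genes called in TSCs on day 2 went from 25 to 3 and on day 7 against normoxia from 48 to 13. With the TSC day 2 and normoxia numbers crossed, 5 members and 326 genes were called on day 2, and with the ESC and XEN numbers of day 7 and day 2 crossed 0 members and 60 and 1 genes.

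Sign changed only for uncalled values. With median-ratio scaling, TSC values of day 7 against normoxia became 0.056 for Fdft1, 0.00065 for Sqle and 0.10 for Lss, and with voom 0.044 for Lss. For Fdps in XEN cells on day 7 against normoxia they became 0.00142 (pseudocount of 1), 0.027 (median-ratio scaling) and 0.00168 (exon lengths). For Srebf2 in ESCs on day 7 against day 2 they became -0.014 (median-ratio scaling) and -0.00074 (exon lengths). The cause was not tested. With each library left out, ranges that crossed 0 on day 7 against normoxia in TSCs were -0.49 to 0.017 (Hmgcs1), -1.04 to 0.20 (Idi1), -0.42 to 0.15 (Fdft1), -0.41 to 0.018 (Sqle), -0.38 to 0.20 (Lss) and -0.79 to 0.12 (Srebf2). In ESCs they were -0.18 to 0.38 (Insig1) and -0.13 to 0.28 (Srebf2) on day 2, -0.055 to 0.16 (Insig1) and -0.059 to 0.22 (Srebf2) on day 7 against normoxia, and -0.44 to 0.33 (Fdps), -0.023 to 0.38 (Sqle), -0.33 to 0.23 (Insig1) and -0.20 to 0.21 (Srebf2) on day 7 against day 2. In XEN cells they were -0.25 to 0.037 (Idi1), -0.088 to 0.57 (Fdps), -0.55 to 0.045 (Msmo1) and -0.095 to 0.67 (Srebf2) on day 2, -0.40 to 0.39 (Fdps) and -0.75 to 0.023 (Srebf2) on day 7 against normoxia, and -0.64 to 0.15 (Fdps) and -0.23 to 0.035 (Lss) on day 7 against day 2.

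Genes called of all tested moved with the setting. Over settings other than leaving out a library or crossing the numbers they were 0 to 5, 18 to 320 and 6 to 31 in ESCs, 0 to 34, 12 to 79 and 922 to 2214 in TSCs and 0, 1 to 43 and 2 to 37 in XEN cells, for day 2 against normoxia, day 7 against normoxia and day 7 against day 2. With each library left out they were 0 to 493, 8 to 322 and 0 to 192 in ESCs, 0 to 50, 0 to 185 and 0 to 2215 in TSCs and 0 to 61, 1 to 195 and 0 to 83 in XEN cells. A group left with 1 library was assumed to vary like the other groups. Idi1 and Fdps rest on the fewest reads.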
